A study of Mus musculus with 4 samples.

Results

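The receptors described here are those through which group 2 innate lymphoid cells (ILC2s) of the lung can read the common gamma chain cytokines, thymic stromal lymphopoietin (TSLP) and IL-25. Their genes were taken from the deposited gene tables by symbol, and all 10 named genes were found among the 22558 genes listed: Il2ra, Il2rb, Il2rg, Il4ra, Il7r, Il9r, Il21r, Il13ra1, Crlf2 and Il17rb. The libraries hold RNA of ILC2s sorted from lungs of mice of 6 weeks of age, with 2 libraries of C57BL/6 wildtype (WT) mice and 2 of mice that the labels call ICAM-1 KO, here named the KO-labelled libraries. According to the methods of the study, these mice carry the constitutive B6.129S4-Icam1tm1Jcgr/J allele on the C57BL/6 background. Both groups had received IL-33, an epithelial cytokine that activates ILC2s, as 3 intranasal doses of 0.5 µg rm-IL33 before the lungs were taken on day 4, and each library was a pool of 4 mice. No library of unchallenged mice or of another time was compared, and since the allele is constitutive, every cell of the animals carried it. The sort took CD45+ cells that lacked lineage markers (among them CD3ε, CD4, CD5, TCRβ, CD11b and FcεRIα) and carried ST2 and CD127 on their surface. CD127 is the protein made from Il7r, so all sorted cells had been selected for that receptor in both genotypes.

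The common gamma chain, encoded by Il2rg, is shared by the receptors for IL-2, IL-4, IL-7, IL-9, IL-15 and IL-21, and each of these receptors adds at least one chain that recognizes its own ligand. Ligand binding brings the kinase JAK1, bound to the ligand-specific chain, next to JAK3, bound to the common gamma chain, and the kinases phosphorylate STAT proteins, mainly STAT5 for IL-2, IL-7 and IL-9, STAT6 for IL-4 and STAT3 for IL-21. The TSLP receptor pairs the IL-7 receptor alpha chain with Crlf2 in place of the common gamma chain, and IL-13 is read by IL4Rα together with IL13Rα1. The IL-25 receptor belongs to another family: IL17RB joins IL17RA and signals through the adaptor Act1 instead of JAK kinases. In ILC2s, IL-7 and IL-2 are known for survival and growth, IL-9 as an autocrine survival signal, and TSLP and IL-25 as alarm signals from the epithelium.

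Of the 10 receptor genes, 3 were higher in the KO-labelled libraries (Il21r, Il4ra and Il9r) and 1 was lower (Il2ra). Il21r changed by 3.39-fold and the other 3 by 1.31-fold to 1.42-fold. Il2rg, the common gamma chain, and Il2rb did not pass the test, nor did Il7r, Il13ra1, Crlf2 and Il17rb. All values are from edgeR's quasi-likelihood test over 11711 genes with Benjamini-Hochberg adjustment, and a gene is called at an adjusted p under 0.05. Among all genes tested, 13.8% were called, 8.8% as higher and 4.97% as lower in the KO-labelled libraries, and 5.47% were called with a change of at least 2-fold (4.94% higher and 0.538% lower). The 10 receptor genes had a median log2 fold change of 0.11, compared with 0.01 over all genes tested.

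The promoters of 3 of the called genes are shown because they are the stretches just before the genes whose RNA differed, each as the 250 bases before the RefSeq start on GRCm38.p6, 5′ to 3′ on the strand of the gene. Il21r lies at chr7:125603179-125603428 (plus strand), Il9r at chr11:32200280-32200529 (minus strand) and Il2ra at chr2:11642542-11642791 (plus strand). The window of Il4ra is not shown, since it lies partly inside the gene as GENCODE places it. Capitals mark matches, on either strand, to the motifs searched.
Il21r: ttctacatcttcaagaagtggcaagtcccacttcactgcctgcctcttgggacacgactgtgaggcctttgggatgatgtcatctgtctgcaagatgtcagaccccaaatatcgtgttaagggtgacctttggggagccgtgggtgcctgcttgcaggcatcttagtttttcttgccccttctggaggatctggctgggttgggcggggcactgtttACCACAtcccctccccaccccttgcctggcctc
Il9r: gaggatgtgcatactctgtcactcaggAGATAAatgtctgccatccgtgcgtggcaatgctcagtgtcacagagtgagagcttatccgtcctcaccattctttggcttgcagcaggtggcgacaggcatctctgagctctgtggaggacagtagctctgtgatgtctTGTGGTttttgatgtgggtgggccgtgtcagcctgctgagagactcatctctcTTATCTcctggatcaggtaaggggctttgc
Il2ra: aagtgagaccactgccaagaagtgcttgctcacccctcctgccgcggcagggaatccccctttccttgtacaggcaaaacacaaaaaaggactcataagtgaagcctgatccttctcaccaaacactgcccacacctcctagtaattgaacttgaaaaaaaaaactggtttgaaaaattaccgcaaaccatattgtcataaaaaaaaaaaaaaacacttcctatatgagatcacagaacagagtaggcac
The letters searched are given here with the share of all 32851 RefSeq windows of this length that held them: TTCNNNGAA (7.02%) and TTCNNNNGAA (5.85%), the cores that STAT proteins read, the GATA forms AGATAA (9.99%), TGATAA (7.94%), AGATAG (7.71%) and TGATAG (6.35%), of which at least 1 stood in 26.5%, the AP-1 form TGANTCA (6.75%), the NFAT core TGGAAA (18.6%) and the RUNX form TGTGGT (14%). The Il9r window held AGATAA on both strands, beginning 223 and 30 bases before the start, and TGTGGT 83 bases before it. The Il21r window held 1 match, to the RUNX form on the other strand (ACCACA, 33 bases before the start), and the Il2ra window held none. Of the remaining receptor genes, 6 had an entry in the promoter table. Crlf2 (236 bases before the start) and Il2rg (227 bases) each held TGTGGT, Il2rg also held TGGAAA at 23 bases, Il17rb held TGAGTCA at 104 bases, Il7r held TTCAGGGAA at 142 bases (in a window that lies inside the gene as GENCODE places it), and Il4ra and Il13ra1 held no match. A match to letters does not mark a bound site.

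The libraries were of like depth, between 24796148 and 28782471 expected counts each, and their log2 CPM (counts scaled to a common library total) correlated across genes at 0.966 within WT, 0.969 within the KO-labelled libraries and 0.93 to 0.938 between the groups. For Icam1 itself, 2579 and 2630 counts were read in WT, and 2812 and 3453 in the other group (log2 fold change 0.33, edgeR adjusted p = 0.0745). Its RNA was not lower in the KO-labelled libraries, so that group is named by its label only. The study describes these mice as lacking ICAM-1 protein, which was not analysed here. ILC2 genes were present in each library: Gata3 lay between 425 and 537, Rora between 576 and 672 and Il1rl1, which encodes ST2, between 626 and 774 normalized counts. Over the 10 genes of the ILC2 list, the summed normalized counts were 5731 to 6024 in WT and 4774 to 4866 in the KO-labelled libraries, with 3 genes lower (Il5, Il13 and Arg1) and 1 higher (Klrg1). Arg1, the most abundant of the list, had 1641 and 1524 in WT against 1061 and 925 (edgeR adjusted p = 0.00371). Il5, the next, had 1039 and 1252 against 668 and 656 (adjusted p = 0.00274). Genes of other cells were also read, and for most lists their summed normalized counts differed between the groups. The study reports by flow cytometry that the cells sorted for these libraries were of high purity, which was not analysed here. The T cell list rose from 749 to 869 in WT to 1213 to 1436 in the KO-labelled libraries (7 of 13 genes higher), regulatory T cell genes from 448 to 640 up to 869 to 975 (5 of 6 higher), B cell genes from 154 to 164 up to 265 to 328 (5 of 6 tested higher), macrophage and monocyte genes from 268 to 274 up to 550 to 816 (7 of 9 tested higher), endothelial genes from 134 to 142 up to 335 to 361 (8 of 8 higher) and epithelial genes from 189 to 419 up to 532 to 1354 (4 of 7 tested higher). Mast cell and basophil genes rose from 1048 to 1283 in WT up to 1471 to 1943, with 2 of 8 called higher. Eosinophil genes went the other way in sum, from 68.0 to 95.1 in WT down to 17.6 to 33.0, with 1 higher and 2 lower of 3 tested. The remaining lists are given by their calls: dendritic cell genes 3 of 4 tested higher, NK cell and ILC1 genes 3 of 6, neutrophil genes 3 of 5 and ILC3 genes 0 of 4. The shares over all genes tested were 8.8% called higher and 4.97% called lower. None of the listed genes that have a row was at 0 in all libraries. In bulk RNA fewer cells of a type and less RNA per cell cannot be told apart.

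Il2rg, the common gamma chain itself, was the most abundant of the receptor genes and did not differ between the groups beyond the spread of the libraries. It had 1132 and 1072 normalized counts in WT and 975 and 1084 in the KO-labelled libraries, so the ranges overlapped. Its log2 fold change was -0.07 (standard error 0.0901, 95% interval -0.28 to 0.13, edgeR adjusted p = 0.646). The gene lies on chromosome X from 101264378 to 101268255 of mm10 (minus strand), and it shares 728 exon bases with Gm20489 on the same strand, a gene to which at most 7.4 counts were assigned.

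Il2rb encodes the beta chain through which IL-2 and IL-15 signal, and without which the alpha chain alone gives no response. It had 544 and 581 normalized counts in WT against 496 and 542 in the KO-labelled libraries. All values of the second group were below those of the first, but by little, and the log2 fold change of -0.09 (standard error 0.0882, 95% interval -0.29 to 0.11) did not pass the test (edgeR adjusted p = 0.544). Il2rb lies on chromosome 15 from 78479256 to 78495271 (minus strand).

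Il2ra encodes CD25, the alpha chain that raises the affinity of the receptor for IL-2, and was the one receptor gene called lower. It had 699 and 836 normalized counts in WT and 536 and 524 in the KO-labelled libraries. The WT libraries differed from each other more than the others did, and the groups did not overlap. The means were 767 ± 97.2 (SD, n = 2 libraries) and 530 ± 8.24 (SD, n = 2), a level 1.42-fold lower (log2 fold change -0.51, standard error 0.0992, edgeR adjusted p = 0.0133). The call held under the 8 other settings tried. Without WT replicate 2, the library with the highest value, the log2 fold change was -0.37 and the call was lost (edgeR adjusted p = 0.0786). Il2ra lies on chromosome 2 from 11642807 to 11693193 (plus strand).

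Across the receptor genes, 8 of 10 had normalized counts that did not overlap between the groups, 5 higher and 3 lower in the KO-labelled libraries. Over all genes tested 59.5% did not overlap, 28.3% higher and 31.3% lower, so with 2 libraries a group this separation by itself was common.

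**Figure D1:**
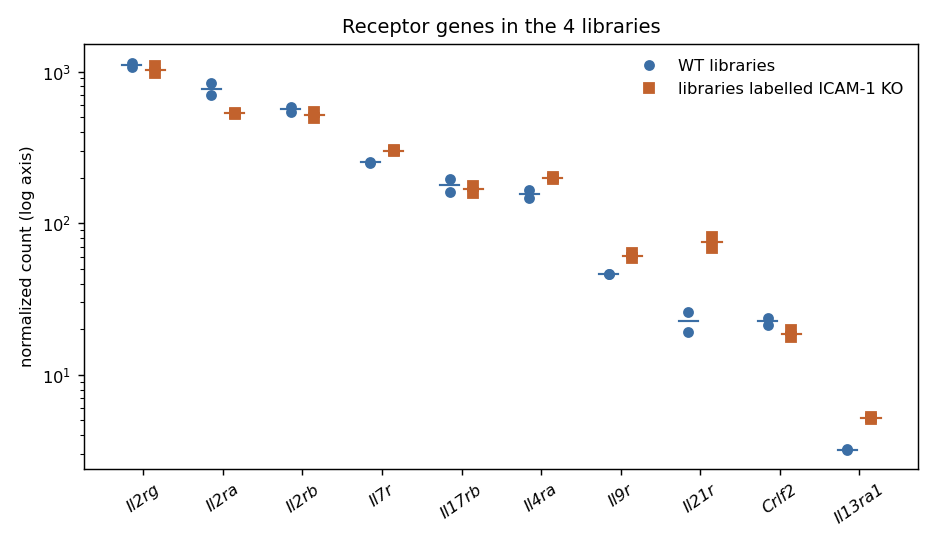
Normalized counts (log axis) of the 10 receptor genes in each library, 1 point per library and a bar at the mean of each group, WT beside the KO-labelled libraries. Values are not divided by length and can be compared within a gene only. The Il21r points of the groups lie far apart (19.2 and 25.9 against 68.7 and 81.4), while those of Il2rg and Il17rb overlap.

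Il7r encodes the alpha chain of the IL-7 receptor, which the TSLP receptor also uses, and was one of the surface proteins of the sort. It had 7699 and 7893 counts in WT and 8593 and 9540 in the KO-labelled libraries, and the means of the normalized counts were 252 ± 2.98 and 301 ± 4.01 (SD, n = 2 each). Within each group the normalized counts lay close together and the groups did not overlap. The log2 fold change of 0.28 (standard error 0.0821, 95% interval 0.10 to 0.47) lay just on the far side of the threshold (edgeR adjusted p = 0.0513). It was past it with TMM factors (adjusted p = 0.0451), with DESeq2 (adjusted p = 0.0194) and with the replicate number as a block (adjusted p = 0.0476), so whether Il7r is counted among the higher genes rests on the setting. The gene lies on chromosome 15 from 9505788 to 9530176 (minus strand).

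Crlf2 encodes the chain that binds TSLP together with the IL-7 receptor alpha chain. It had 21.4 and 23.6 normalized counts in WT and 17.6 and 19.8 in the KO-labelled libraries, lower in both without overlap. The log2 fold change of -0.24 did not pass the test (standard error 0.184, 95% interval -0.65 to 0.18, edgeR adjusted p = 0.427). The chains of the TSLP receptor thus had fitted changes of opposite sign, neither of them called. Crlf2 lies on chromosome 5 from 109554709 to 109558993 (minus strand).

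Il4ra encodes the chain that both the IL-4 and the IL-13 receptors use. It had 145 and 165 normalized counts in WT and 202 and 196 in the KO-labelled libraries, and the groups did not overlap. The means were 155 ± 14.0 (SD, n = 2) and 199 ± 4.39 (SD, n = 2), a level 1.31-fold higher (log2 fold change 0.38, standard error 0.0961, edgeR adjusted p = 0.0328). The call was lost without a filter on low counts (adjusted p = 0.117), with filterByExpr (adjusted p = 0.06), and without WT replicate 1 (adjusted p = 0.144), ICAM-1 KO replicate 1 (adjusted p = 0.0742) or ICAM-1 KO replicate 2 (adjusted p = 0.0572). Il4ra shares 571 exon bases with the antisense gene Gm44876, which had 0.2 to 96 counts, and the strand setting of the counting is not given in the sources used here.

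Il13ra1 encodes the partner of IL4Rα for IL-13 and was the scarcest of the receptor genes. It had 96 and 101 counts in WT and 150 and 160 in the KO-labelled libraries, that is 3.20 and 3.23 against 5.24 and 5.13 normalized counts. The groups did not overlap, but at this depth the log2 fold change of 0.72 had a wide interval (standard error 0.347, 95% interval -0.07 to 1.51) and did not pass the test (edgeR adjusted p = 0.200). Il13ra1 lies on chromosome X from 36112110 to 36171259 (plus strand).

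Il9r encodes the chain that binds IL-9. It had 46.1 and 46.3 normalized counts in WT and 63.8 and 58.6 in the KO-labelled libraries, so the WT libraries nearly coincided and both others lay above them. The level was 1.35-fold higher (46.2 ± 0.169 against 61.2 ± 3.68, SD, n = 2 each, log2 fold change 0.43, standard error 0.118, edgeR adjusted p = 0.0431). The call did not survive leaving out any one library (adjusted p between 0.0802 and 0.191), and it was also lost without a filter on low counts (0.134), with filterByExpr (0.072), with limma (0.0526), with the older quasi-likelihood fit (0.055) and with the replicate block (0.0549), all as adjusted p. Il9r lies on chromosome 11 from 32187541 to 32200279 (minus strand).

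Il21r encodes the chain that binds IL-21, a cytokine made mainly by T cells, and had the largest change among the receptor genes. Its counts were 582 and 816 in WT, and 1977 and 2554 in the KO-labelled libraries, or 19.2 and 25.9 against 68.7 and 81.4 normalized counts. Both KO-labelled libraries lay well above both WT libraries. The means were 22.6 ± 4.68 (SD, n = 2) and 75.03 ± 9.01 (SD, n = 2), a level 3.39-fold higher (log2 fold change 1.76, standard error 0.170, 95% interval 1.38 to 2.15, edgeR adjusted p = 0.000674). The call held under all 8 other settings tried and without each of the libraries, with log2 fold changes from 1.56 to 1.99. Il21r was 1 of the 578 genes called higher by at least 2-fold.

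Genes of other cells moved in the same libraries as Il21r, and several of those cells are known to express it, T, B and NK cells among them. Foxp3, which defines regulatory T cells, had 42.4 and 53.9 normalized counts in WT and 157 and 181 in the KO-labelled libraries (log2 fold change 1.84, edgeR adjusted p = 0.000224). Cd3e, which encodes a chain of the T cell receptor complex, had 30.8 and 50.7 against 37.5 and 52.2 and did not pass the test (edgeR adjusted p = 0.690). Of the most abundant genes of the T cell list, Trbc2 had a log2 fold change of 0.25 (edgeR adjusted p = 0.0987) and Trbc1 was higher by 0.48 (adjusted p = 0.0169). The other 6 genes of the T cell list that were called, Trac, Cd3d, Cd4, Cd5, Cd6 and Cd28, were higher by 1.48 to 1.60 on the log2 scale and were named after their values were seen. Csf1r, a macrophage gene, was higher by 1.14 on the log2 scale (edgeR adjusted p = 0.00418). The part of these cells in the values of the receptor genes was not tested.

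**Figure D2:**
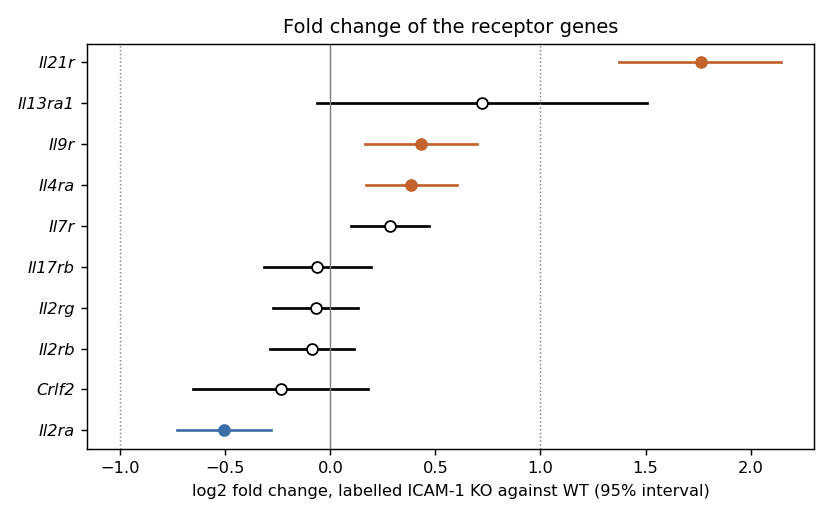
Log2 fold change of each receptor gene, KO-labelled libraries minus WT, with its 95% interval from edgeR's quasi-likelihood fit, 2 libraries a group, and dotted lines at a change of 2-fold. The intervals of Il21r, Il9r, Il4ra, Il7r and Il2ra lie off 0, and those of Il21r, Il9r, Il4ra and Il2ra pass the adjusted threshold.

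Il4ra and Il21r are neighbours on chromosome 7, from 125552120 to 125579474 and from 125603429 to 125633570 on the plus strand of mm10, with 23954 bases between them. Both were higher in the KO-labelled libraries, by unequal amounts (log2 fold changes of 0.38 and 1.76). The genes on either side did not pass the test: Nsmce1 had a log2 fold change of -0.07 (edgeR adjusted p = 0.736) and Kdm8 of -1.02 (adjusted p = 0.144), while Gtf3c1 had 0.07 (adjusted p = 0.780) and D430042O09Rik 0.63 (adjusted p = 0.175). These neighbours were named for their position, after their values were seen.

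Il17rb encodes the chain that binds IL-25. It had 161 and 194 normalized counts in WT and 176 and 158 in the KO-labelled libraries, and the groups overlapped. Its log2 fold change was -0.06 (standard error 0.112, 95% interval -0.32 to 0.19, edgeR adjusted p = 0.757). Il17ra, the chain shared by receptors of the IL-17 family, had a log2 fold change of 0.20 and did not pass the test either (edgeR adjusted p = 0.274). Il17rb lies on chromosome 14 from 29996135 to 30008896 (minus strand) and shares 141 exon bases with Actr8 on the other strand, a gene with 2118 to 2763 counts. As for Il4ra, the strand setting of the counting is not given, so reads of the shared bases may not be told apart.

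Levels of different genes were compared as CPM per kb of exon, with all exons of a gene merged. In WT the order was led by Il2rg, at 493 and 527 in the WT libraries, which made up 52.1% of the summed level of the 10 genes. Il2ra (136 to 161) and Il2rb (141 to 149) followed and did not differ beyond their spread. Il7r came next with a mean of 59.7, then Il17rb with 52.9, Il4ra with 28.6, Crlf2 with 16.6, Il9r with 10.3, Il21r with 7.48 and Il13ra1 with 0.947 CPM per kb, and none of these neighbours in the order overlapped. In the KO-labelled libraries, Il2rg again led with a mean of 497 (51.5% of the sum), and Il2rb at 139 now lay above Il2ra at 107 without overlap. Il21r moved from the ninth to the seventh place, with a mean level of 26.0, above Crlf2 at 14.4 and Il9r at 14.3, which overlapped each other. Il13ra1 remained last at 1.60. Among the 11414 genes tested that had a length, 99.2% had a lower level than Il2rg over all libraries, 96.5% than Il2rb, 96% than Il2ra, 91.9% than Il7r, 89.5% than Il17rb, 84.1% than Il4ra, 70.9% than Il21r, 69.2% than Crlf2, 63.3% than Il9r and 10% than Il13ra1.

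**Figure D3:**
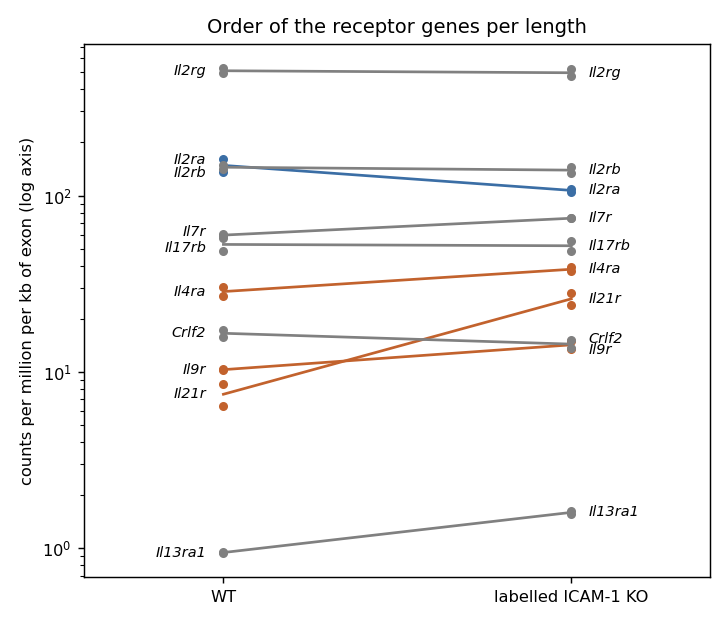
CPM per kb of exon (log axis) of the 10 receptor genes in WT and KO-labelled libraries, with 1 point per library and lines joining the group means, orange for genes called higher, blue for lower and grey for not called. Il2rg lies highest in both groups, Il13ra1 lowest, and Il21r stands ninth in WT and seventh in the KO-labelled libraries.

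The RNA of the chains that must meet in 1 receptor was also set in relation within each library, as the ratio of their levels per length, which does not depend on the depth of the library. With 2 libraries against 2 the exact permutation test (two-sided) cannot give a p below 0.333, so the ratios are a description. The ratio of Il2ra to Il2rg was 0.258 and 0.326 in WT and 0.230 and 0.202 in the KO-labelled libraries. The ratio of Il2rb to Il2rg was 0.268 and 0.301 against 0.283 and 0.278 and overlapped. Of the remaining chains set against Il2rg, Il21r, Il9r, Il4ra and Il7r each had a higher ratio in both KO-labelled libraries. For Il21r it was 0.0122 and 0.0173 in WT and 0.0505 and 0.0539 in the other group, 3.59-fold higher in the mean of the logs. For Il9r it was 0.0196 and 0.0208 against 0.0315 and 0.0261, for Il4ra 0.0511 and 0.0613 against 0.0824 and 0.0719, and for Il7r 0.115 and 0.119 against 0.157 and 0.144. Even so, Il2rg RNA exceeded that of each of these chains in every library.

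For the TSLP receptor, the ratio of Crlf2 to Il7r was 0.262 and 0.294 in WT and 0.184 and 0.203 in the KO-labelled libraries, 1.44-fold lower. This was a larger shift than either gene had alone, since the fitted changes of the genes ran in opposite directions. For the IL-13 receptor, Il4ra exceeded Il13ra1 by 28.4-fold and 32.0-fold in WT and by 24.0-fold and 23.8-fold in the other group. For the IL-25 receptor, Il17rb exceeded Il17ra by 4.74-fold and 6.00-fold against 5.08-fold and 3.94-fold, which overlapped. In all, 7 of 9 chain pairs had ratios that did not overlap between the groups. Since 6 of the 9 share Il2rg they are not independent, and 59.5% of single genes did not overlap either, while no such share was computed for other pairs of genes.

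**Figure D4:**
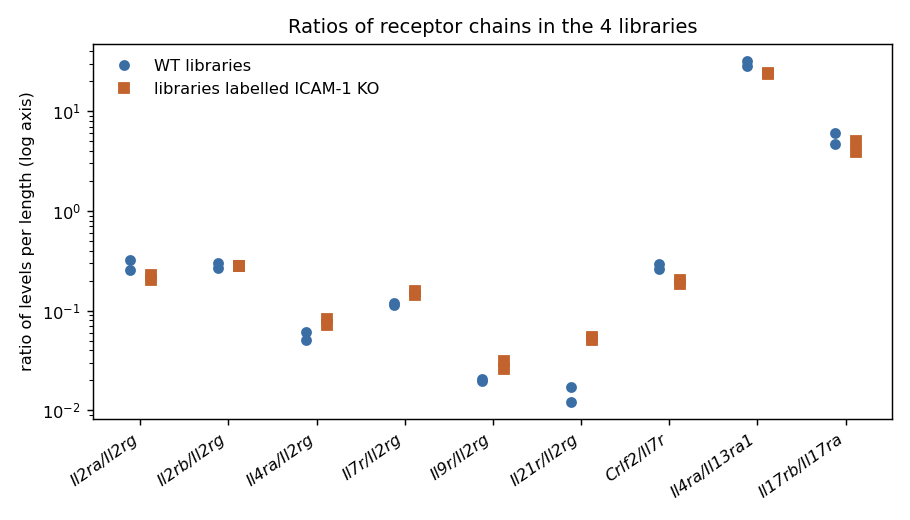
Ratio of the levels per length of receptor chains that pair (log axis), 1 point per library. The ratio of Il21r to Il2rg separates the groups by the widest gap, the ratio of Crlf2 to Il7r is lower in both KO-labelled libraries, and the ratios of Il2rb to Il2rg and of Il17rb to Il17ra overlap.

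Genes around the receptors were listed by role, and 18 of the 75 that were tested passed, 11 higher and 7 lower in the KO-labelled libraries. The shares over all genes tested were 13.8% called, 8.8% as higher and 4.97% as lower. The list of ligands held 9 genes, of which 7 had a row and 3 were tested. Il9 and Il13 fell, by 1.58 and 1.45 on the log2 scale (edgeR adjusted p = 0.0115 and 0.00247), while Il4 had 8.91 and 9.59 normalized counts in WT and 7.12 and 13.2 in the other group (adjusted p = 0.770). The ligand Il9 was thus lower where its receptor chain Il9r was called higher, a call that was lost under several settings, as given above. A link between these changes was not tested. Il2, Il7, Il15 and Tslp were below the filter, with at most 78 counts in any library.

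The receptors that were listed as neighbours of the family, among them chains for IL-5, IL-6, IL-10, IL-12, IL-33 and interferons, had 7 genes higher and 2 lower of 23 tested, with a median log2 fold change of 0.36. Ifnar1, a chain of the type I interferon receptor, was higher by 0.74 (edgeR adjusted p = 0.00247), Il6st, the signal chain of the IL-6 family, by 1.32 (adjusted p = 0.00346) and Il6ra by 1.99 on the log2 scale (adjusted p = 0.00649). Il12rb1, a chain of the IL-12 and IL-23 receptors, fell by 0.68 on that scale (adjusted p = 0.00549). The most abundant receptors of this list were not called: Il1rl1 had a log2 fold change of 0.21 (adjusted p = 0.173) and Ifngr1 of 0.41 (adjusted p = 0.0704).

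The JAK and STAT proteins and adaptors below the receptors had 1 gene higher and 1 lower of 17 tested, with a median of 0.07. Jak2, a kinase that the TSLP receptor uses, was higher by 0.32 on the log2 scale (295 and 315 against 381 and 366 normalized counts, edgeR adjusted p = 0.0365). Irs2, an adaptor of the IL-4 receptor, fell by 0.30 (514 and 485 against 411 and 388, adjusted p = 0.0449). Jak1, the most abundant kinase of the list, had a log2 fold change of -0.08 (adjusted p = 0.565). The values of Jak3, the kinase of the common gamma chain, were named after they were seen, with 364 and 312 normalized counts in WT and 326 and 323 in the other group (adjusted p = 0.860).

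Of the feedback and target genes of these receptors, 3 were higher and 2 lower of 20 tested, with a median of 0.13. Cish, a STAT5 target that restrains IL-2 receptor signals, fell from 443 and 454 to 286 and 303 normalized counts (log2 fold change -0.58, edgeR adjusted p = 0.00381), without overlap. Myc, named after its value was seen, fell by 0.45 on the log2 scale (adjusted p = 0.0417). The survival genes Bcl2 and Mcl1 rose by 0.66 and 0.38 (adjusted p = 0.00705 and 0.0195), and Socs5, a feedback gene reported for IL-4 receptor signals, by 1.02 (adjusted p = 0.0373). Ccnd2, which drives entry into the cell cycle, had 291 and 356 against 301 and 357 normalized counts (adjusted p = 0.822). The genes of this list thus moved in both directions.

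The genes of IL-25 receptor signalling had 0 of 13 called by edgeR, by DESeq2 or by limma, while 4 had an unadjusted p under 0.05 in edgeR, and their median log2 fold change was 0.16. Nfkbiz, a target gene of this pathway and the most abundant of the list, had 346 and 348 normalized counts in WT and 374 and 388 in the other group (edgeR adjusted p = 0.219). Of all genes tested, 13.8% were called, as given above, and the pathway lists are described by their counts only.

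**Figure D5:**
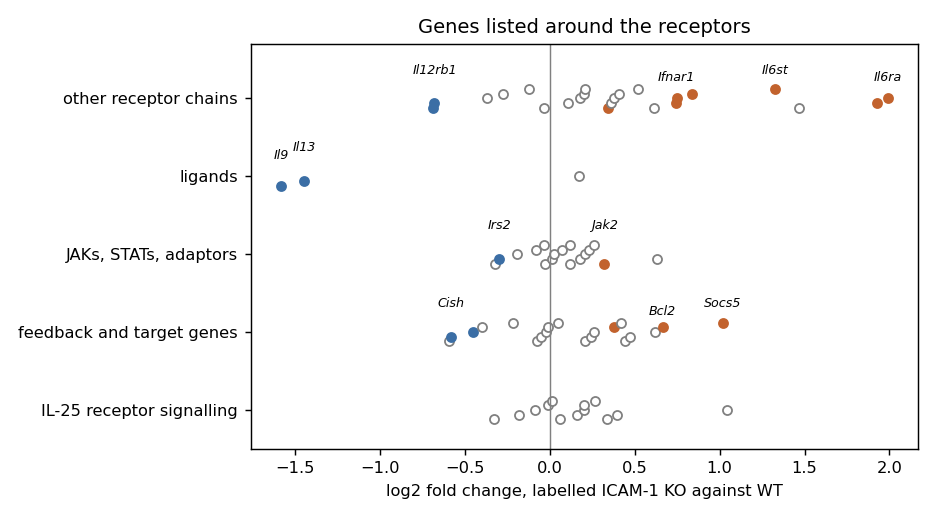
Log2 fold change (KO-labelled libraries minus WT) of each tested gene of the pathway lists, 1 row per list. Filled points have an edgeR adjusted p under 0.05 (orange higher, blue lower): both called ligand genes lie below 0, 7 of the 9 called receptor chains lie above it, and the IL-25 list has no filled point.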

How the data were processed

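RNA of ILC2s sorted from lungs was sequenced in 2 libraries of each genotype, grouped by the sample labels. The authors made cDNA from 10 ng of RNA with a SMARTer low-input kit, sequenced it on a NextSeq 500 and aligned reads with STAR (2.6.1d in the paper's methods, 3.5.3 in the submitters' processing notes) to mm10 with GENCODE M20. The deposited expected counts were estimated by Partek's E/M method and are not normalized. The deposited normalized signal is the count plus 1, multiplied by 1 upper quartile factor per library. The authors' GSA test was not run here.

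Expected counts were rounded and tested with edgeR 4.0.16 (glmQLFit with legacy = FALSE, glmQLFTest, upper quartile factors) in R 4.3.3, with Benjamini-Hochberg adjustment over 11711 genes, those whose normalized counts averaged 1 or more and summed to 10 or more. The procedure was run on simulated counts, in which the changes set were larger than those found for Il2ra, Il4ra and Il9r. That run does not bear on changes as small as theirs. Standard errors were derived from the F statistic, and means and SDs are of normalized counts. Whether the pools were independent sorts is not stated beyond their animals, so p-values measure the spread between these libraries. Lengths are unions of exons in GENCODE M21, whose symbol, chromosome and start match 22052 of 22558 genes. Promoters are RefSeq windows, matched for 9 of 10 receptor genes (Il2rb has no entry).

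The receptor genes, lists and tests were chosen with earlier results of these data known. Named are all receptor genes, Icam1, in each list up to 4 genes with the smallest adjusted p under 0.05 and the 2 most abundant, and for marker lists defining genes and the 2 most abundant. Marker lists covered ILC2s, T cells, regulatory T cells, B cells, macrophages and monocytes, dendritic cells, endothelium, epithelium, NK cells and ILC1, ILC3, mast cells and basophils, eosinophils and neutrophils. Alternatives were TMM factors, DESeq2 1.42.0, no filter, at least 10 counts in every library, filterByExpr, limma 3.58.1 on log2 of the normalized count plus 1, the older quasi-likelihood fit, a replicate block and leaving out each library.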

Additional observations from a re-analysis of the deposited data

How the results depend on the processing

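With 2 libraries a group, all calls rest on spread shared across genes, and where 1 library was left out the lone library was assumed to vary like the other group. Of the settings tried for single receptor genes, 99 kept the direction and the side of the threshold, 15 lost the call, 3 gained it and 3 turned the direction. Without a filter on low counts 535 genes were called instead of 1612, 2 instead of 4 receptor genes and 9 instead of 18 pathway genes, with more genes tested. With filterByExpr 2 receptor genes were called. Leaving out 1 library gave 681 to 1305 called genes, 2 to 2 receptor genes and 10 to 16 pathway genes. The sign turned for Il17rb, whose log2 fold change ranged from -0.192 to 0.081 with 1 library left out (0.081 without WT replicate 2 and 0.005 without ICAM-1 KO replicate 2), and for Il2rg, from -0.16 to 0.013 (0.013 without ICAM-1 KO replicate 1). The cause was not tested.

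The genotypes share the replicate numbers 1 and 2, but deviations of same-numbered libraries from their group means correlated at -0.0582 over genes, so the numbers were not taken as pairs. With the replicate number as a block, 1715 genes, 4 receptor genes and 21 pathway genes were called, Il7r replacing Il9r among the receptor genes. With levels per longest transcript instead of merged exons, 10 places in the order were kept in WT and 8 in the KO-labelled libraries, where Crlf2 and Il9r changed places. On that scale the ranges of Il2ra and Il2rb overlapped in the KO-labelled libraries and not in WT, and in WT those of Il7r and Il17rb and those of Il9r and Il21r overlapped.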
